A study of Homo sapiens with 11 samples.

Results

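IRF9 and 4 genes that interferon turns on, OAS2, MX2, IFI6 and BST2, were followed through RNA sequencing of MDA-MB-231 cells. The 5 genes were picked by name from the table of gene values, which holds 8085 genes, and all 5 had values in all 11 libraries. In every knockdown library each of the 5 genes was lower than in both control libraries. Values lower without overlap were also found for 52.7%, 52.9% and 41.1% of all genes tested after knockdown of BCL11A, MBNL1 and both. The table holds only genes that differed from the control by its authors' test. The level of IRF9 was 2.36-fold, 2.31-fold and 2.35-fold higher in the control than in these 3 knockdowns.

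MDA-MB-231 is a breast cancer line with epithelial origin, started from a metastatic pleural effusion. All groups received siRNA: a non-targeting control at 100 nM (siNS, n = 2), a pool against the transcriptional repressor BCL11A at 100 nM (siBCL11A, n = 3), a pool against the splicing regulator MBNL1 at 100 nM (siMBNL1, n = 3), or both pools at 50 nM each (siB/siM, n = 3). RNA was taken at 48 h. The labels do not state that replicates were separate cultures, so p-values measure the spread between these libraries, which may be technical. Untransfected cells were not analysed here, and each siRNA target was approached with 1 pool.

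Cells that sense type I interferon activate the kinases JAK1 and TYK2, which phosphorylate STAT proteins, STAT2 among them. These join IRF9, the subunit that reads DNA, and the complex binds interferon-stimulated response elements in the promoters of antiviral genes. OAS2 is an oligoadenylate synthetase that senses double-stranded RNA and makes the activator of RNase L. MX2 is a dynamin-like GTPase that restricts retroviruses. IFI6 is a small membrane protein with antiviral and anti-apoptotic roles, and BST2, also called tetherin, holds budding virus particles at the cell surface. Tumour cells often transcribe part of this programme without added interferon.

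In the GENCODE annotation of build GRCh38, IRF9 lies on the plus strand at chr14:24161053-24166565, OAS2 on the plus strand at chr12:112978395-113011723 and MX2 on the plus strand at chr21:41361943-41409390. IFI6 lies on the minus strand at chr1:27666061-27672218 and BST2 on the minus strand at chr19:17402939-17405648. IRF9 shares its span with the gene AL136295.5 on the same strand, IFI6 with the antisense gene AL445490.1 and OAS2 with the antisense gene AC004551.1. Strand cannot separate reads of IRF9 and AL136295.5 where they overlap. The libraries were stranded, per the labels, but whether the counting used strand is not given in the sources used here. Overlapping reads of IFI6 or OAS2 and their antisense partners therefore cannot be told apart here either.

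Promoter windows of 300 bases, 250 before and 50 after the annotated start, were found for 3 of the 5 genes in RefSeq (build GRCh38.p14), and OAS2 and MX2 had no entry. They are printed to show where the letters that interferon factors are known to read occur near the starts of these genes. Capitals mark matches to the half-site GAAA repeated after a spacer of 2 bases of any kind, the core of an interferon-stimulated response element (called here the GAAA repeat), or to TTCNNNGAA, the core of a gamma-activated site, searched on both strands. The windows are chr14:24161015-24161314 on the plus strand for IRF9, chr1:27672143-27672442 on the minus strand for IFI6 and chr19:17405581-17405880 on the minus strand for BST2.
IRF9: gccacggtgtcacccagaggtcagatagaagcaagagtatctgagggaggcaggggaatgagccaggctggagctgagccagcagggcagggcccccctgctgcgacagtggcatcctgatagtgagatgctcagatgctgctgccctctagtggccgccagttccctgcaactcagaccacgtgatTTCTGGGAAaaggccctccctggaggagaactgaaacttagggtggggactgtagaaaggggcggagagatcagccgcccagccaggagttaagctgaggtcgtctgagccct
IFI6: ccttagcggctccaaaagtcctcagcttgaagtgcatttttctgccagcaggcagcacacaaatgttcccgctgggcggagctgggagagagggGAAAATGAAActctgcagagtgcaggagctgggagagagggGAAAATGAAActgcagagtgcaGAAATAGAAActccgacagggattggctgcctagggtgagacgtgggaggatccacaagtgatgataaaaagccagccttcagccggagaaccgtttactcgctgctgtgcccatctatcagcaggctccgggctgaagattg
BST2: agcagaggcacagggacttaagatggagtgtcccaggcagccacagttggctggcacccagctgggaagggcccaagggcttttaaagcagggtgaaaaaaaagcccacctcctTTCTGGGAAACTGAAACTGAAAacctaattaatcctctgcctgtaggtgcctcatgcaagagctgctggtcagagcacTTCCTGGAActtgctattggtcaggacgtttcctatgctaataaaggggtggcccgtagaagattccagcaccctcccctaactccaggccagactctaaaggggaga

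The IFI6 window held 3 matches to the GAAA repeat, which began 156, 115 and 93 bases before the start, and 0 matches to TTCNNNGAA. The BST2 window held 2 overlapping matches to the GAAA repeat, 130 and 124 bases before the start. It also held 2 matches to TTCNNNGAA, 136 and 58 bases before the start, of which the first overlaps a match to the GAAA repeat. The IRF9 window held 1 match to TTCNNNGAA, 63 bases before the RefSeq start, and 0 to the GAAA repeat. GENCODE starts IRF9 at 24161053, near the first base of this window (24161015). Most of the window, with its match, therefore lies after the GENCODE start, and bases before the window were not searched. Of all 35116 promoter windows, 1255 (3.57%) held the GAAA repeat and 2689 (7.66%) held TTCNNNGAA. These matches describe letters in the window and not bound sites.

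**Figure D1:**
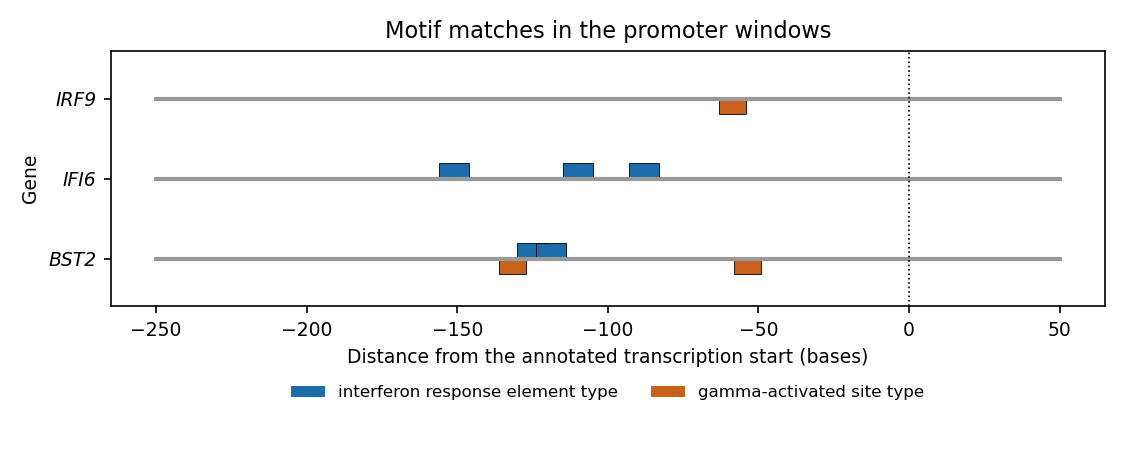
Matches to the GAAA repeat (interferon response element type, blue) and TTCNNNGAA (gamma-activated site type, orange) in the 300-base promoter windows of IRF9, IFI6 and BST2. Distances are in bases from the transcription start annotated in RefSeq (dotted line). IFI6 has 3 blue matches, BST2 has 2 overlapping blue and 2 orange matches, and IRF9 has 1 orange match.

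Across the series, effective depth was 20.04 to 34.9 mega-reads per library, and no library was left out. The table had been cut by its authors to genes that differ from siNS by their test, so every share of genes called refers to that selection and not to the transcriptome. MBNL1 was at 9.77 to 10.2 RPKM in siNS, 27.5 to 27.7 in siBCL11A, 2.55 to 3.52 in siMBNL1 and 3.53 to 3.65 in siB/siM (RPKM, reads scaled by transcript length and library size). BCL11A itself was not analysed here, so a fall of BCL11A is not shown. Of 10 genes fixed as markers of the line, 7 had values. Their means in siNS were 917.1 RPKM for VIM, 307.7 for KRT18, 256.7 for KRT8 and 185.3 for CD44. The others were lower, at 16.4 RPKM for ERBB2, 8.93 for EPCAM and 1.54 for CDH2. ESR1, PGR and CDH1, which this line is known to express little or not at all, were not analysed here.

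The 5 genes differ widely in level. In siNS, BST2 was the most abundant per length at 179.9 ± 5.96 RPKM (SD, n = 2), followed by IRF9 at 15.3 ± 1.16, IFI6 at 9.16 ± 0.585, OAS2 at 6.15 ± 0.395 and MX2 at 1.36 ± 0.317 RPKM. Their values rest on about 2556 to 5166 reads per library for BST2, 399 to 979 for OAS2, 177 to 483 for IRF9, 64 to 382 for MX2 and 63 to 222 for IFI6. The short IFI6 transcript and the weakly expressed MX2 are therefore the least precisely counted of the 5.

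IRF9, the DNA-reading subunit at the head of the pathway, was at 16.1 and 14.5 RPKM in the 2 siNS libraries. After siBCL11A its 3 libraries had 6.13, 6.48 and 6.82 RPKM. After siMBNL1 they had 7.06, 6.11 and 6.71 RPKM, and after both pools 6.95, 6.64 and 5.96 RPKM. The 9 knockdown libraries thus sat in a narrow band well under both controls, with no overlap. IRF9 fell in each comparison: its change on the log2(RPKM + 1) scale was −1.12 ± 0.079 (SE) after siBCL11A (limma with Benjamini-Hochberg adjustment, adjusted p = 8.01e-07), −1.10 ± 0.079 after siMBNL1 (adjusted p = 1.55e-06) and −1.12 ± 0.079 after both (adjusted p = 8.33e-07). Ranked from the largest fall, IRF9 stood at percentile 3 of 5360 genes, 2.03 of 4690 and 2.24 of 6700 in the 3 comparisons. In bulk RNA, fewer cells making a transcript and less of it per cell cannot be told apart. The 3 comparisons share the same 2 siNS libraries, so their values are given side by side and are not independent of each other.

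OAS2, the double-stranded RNA sensor enzyme, was at 5.87 and 6.43 RPKM in siNS. Its siBCL11A libraries had 2.92, 3.17 and 2.56 RPKM, its siMBNL1 libraries 3.69, 3.91 and 3.06, and its siB/siM libraries 2.91, 3.00 and 2.88. All knockdown libraries were under both controls, and those of siMBNL1 reached highest. OAS2 fell, with a log2 change of −0.88 ± 0.087 after siBCL11A (limma, adjusted p = 1.14e-05), −0.65 ± 0.087 after siMBNL1 (adjusted p = 0.000157) and −0.86 ± 0.087 after both (adjusted p = 1.35e-05). As ratios of mean RPKM, siNS was 2.13-fold, 1.73-fold and 2.1-fold above the knockdowns.

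MX2, the GTPase, was at 1.13 and 1.58 RPKM in siNS, which is low, and these libraries differed more from each other relative to their mean than for the other 4 genes. It was at 0.373, 0.371 and 0.242 RPKM after siBCL11A, at 0.473, 0.442 and 0.402 after siMBNL1, and at 0.391, 0.439 and 0.265 after both pools. Every knockdown library was under 1 RPKM and both siNS libraries were above it. MX2 fell, with changes on the log2(RPKM + 1) scale of −0.82 ± 0.086, −0.71 ± 0.086 and −0.78 ± 0.086 (limma, adjusted p = 1.87e-05, 8.24e-05 and 2.58e-05). The added 1 compresses these differences, since the ratios of mean RPKM were 4.13, 3.09 and 3.72. Across alternative settings the log2 difference lay between −1.76 and −0.46 after siBCL11A, between −1.42 and −0.48 after siMBNL1 and between −1.65 and −0.44 after both, and it was called under each that kept the gene. MX2 met the minimum mean of 1 RPKM through siNS alone, so its presence in the tested set already favoured a difference in this direction.

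IFI6 was at 9.57 and 8.75 RPKM in siNS. After siBCL11A it had 3.29, 4.25 and 5.29 RPKM, after siMBNL1 2.21, 3.31 and 2.88, and after both pools 2.86, 3.52 and 4.31. The controls were above all 9 knockdown libraries, but the knockdown libraries scattered more than for IRF9. The SD of log2(RPKM + 1) within a knockdown group was 0.275, 0.216 and 0.23 for IFI6, against 0.0672, 0.0914 and 0.0985 for IRF9. IFI6 fell, with a log2 change of −0.96 ± 0.17 after siBCL11A (limma, adjusted p = 0.000811), −1.43 ± 0.17 after siMBNL1 (adjusted p = 5.64e-05) and −1.17 ± 0.17 after both (adjusted p = 0.00019). Its fall after siMBNL1 stood at percentile 0.576 of the 4690 genes tested there, counted from the largest fall.

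BST2, the tetherin gene, had 175.7 and 184.1 RPKM in siNS. Its siBCL11A libraries had 101.6, 116.2 and 122.1 RPKM, its siMBNL1 libraries 106.4, 108.7 and 109.2, and its siB/siM libraries 110.9, 104.8 and 109.2. The knockdown groups lay close together, all below the controls. BST2 fell, with log2 changes of −0.67 ± 0.073, −0.73 ± 0.073 and −0.73 ± 0.073 (limma, adjusted p = 2.63e-05, 1.84e-05 and 1.32e-05), the smallest ratio of the 5 genes, with siNS 1.59-fold, 1.66-fold and 1.66-fold higher. At percentile 14, 8.06 and 7.57 from the largest fall, it was nearer the body of the table than IRF9.

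**Figure D2:**
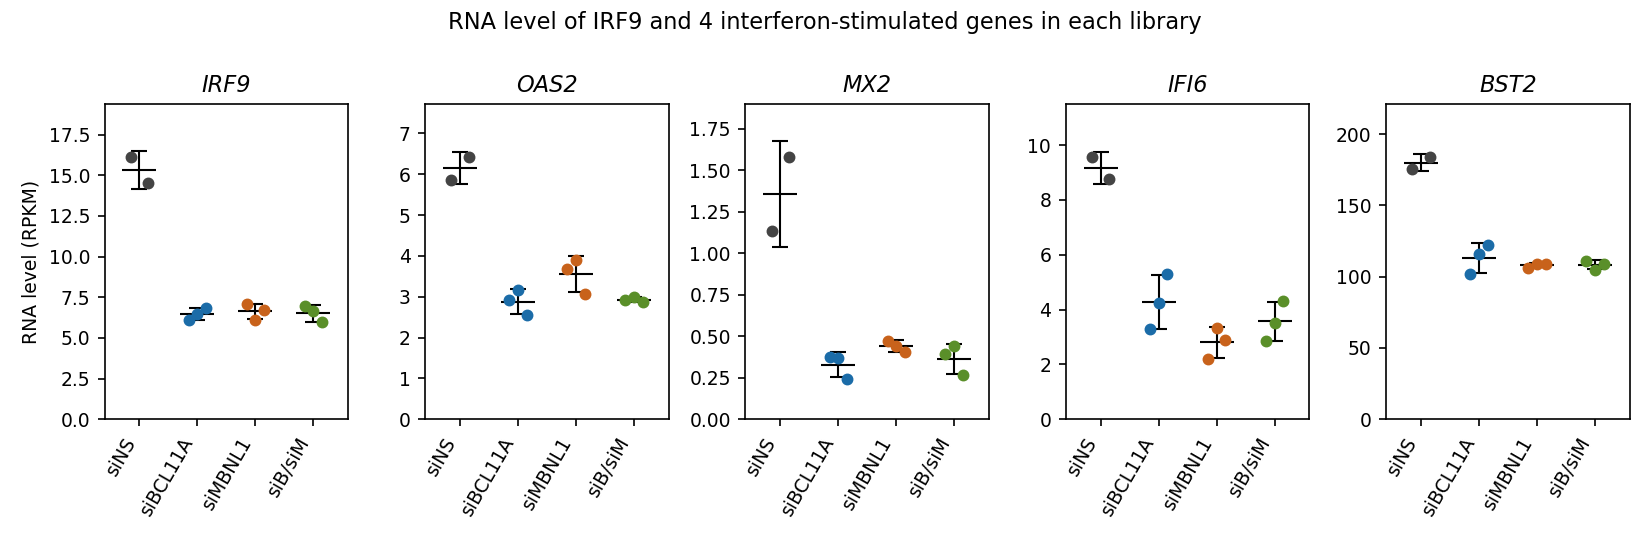
RNA level in RPKM (y axes, linear from 0, 1 scale per gene) of IRF9, OAS2, MX2, IFI6 and BST2 in each library of siNS (2 libraries) and of siBCL11A, siMBNL1 and siB/siM (3 each); coloured points are libraries, horizontal marks are means and bars are SD. For each gene the siNS points lie above all 9 knockdown points, for example 14.5 and 16.1 RPKM against 5.96 to 7.06 RPKM for IRF9.

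Counted together, 5 of the 5 genes were called lower in each comparison with siNS, and in each the knockdown libraries lay apart from the controls. Lower calls were made for 46.9% of the genes tested in siBCL11A, 49.1% in siMBNL1 and 35.5% in siB/siM, higher calls for 42.3%, 45.2% and 51.3%, and lower values without overlap for 52.7%, 52.9% and 41.1%. The median log2 change of the 5 genes was −0.88, −0.73 and −0.86, beside −0.22, −0.25 and 0.24 over all genes tested in the same comparisons. Over the 3149 genes with values in all libraries, to which the 5 belong, it was −0.21, −0.23 and −0.18. The background median of siB/siM thus depends on which genes had values. All 5 genes had values because they had passed the authors' test against siNS in each comparison, which favoured a call for each of them. MX2 also passed the filter through siNS only. These counts and medians therefore describe the 5 genes and carry no test. Leaving out any 1 library kept all 15 calls.

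**Figure D3:**
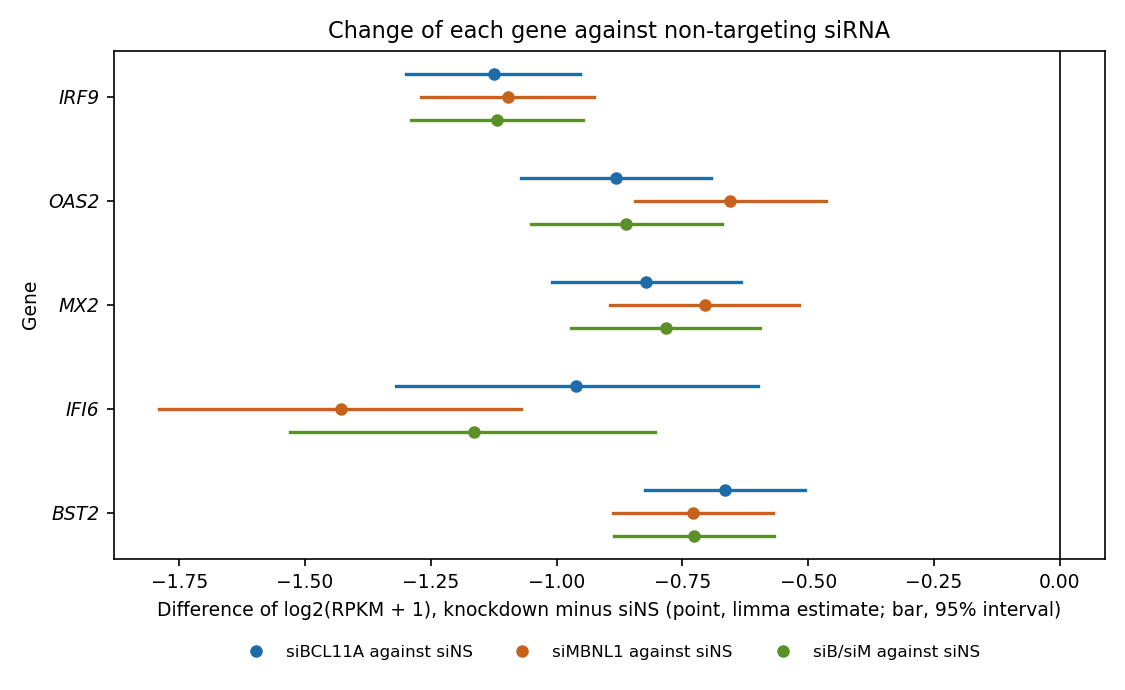
Difference of log2(RPKM + 1), knockdown minus siNS (x axis), for each of the 5 genes (y axis); points are limma estimates and bars 95% intervals for siBCL11A (blue), siMBNL1 (orange) and siB/siM (green). All 15 intervals lie below 0, from −1.79 to −1.07 for IFI6 after siMBNL1 to −0.84 to −0.47 for OAS2 after siMBNL1.

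The authors' deposited table gives its own log2 fold change as siNS over knockdown, without the added 1. For siBCL11A the authors' deposited table lists 1.32 for IRF9, 1.08 for OAS2, 1.87 for MX2, 1.47 for IFI6 and 0.82 for BST2. These follow library 1 of siBCL11A rather than the 3 libraries: the ratio of mean RPKM gives 1.48 for IFI6 with library 1 alone and 1.10 with the mean of 3, while the authors' deposited table has 1.47. For siMBNL1 and siB/siM the authors' deposited table lists 1.72 and 1.36 for IFI6, next to 1.71 and 1.36 from the mean of the 3 libraries. The authors' deposited list of genes lower after siBCL11A holds 3 of the 5 genes, IRF9 at 2.36-fold, OAS2 at 2.13-fold and IFI6 at 2.14-fold. MX2, which had the largest ratio of the 5 after siBCL11A (4.13-fold by mean RPKM), is absent from it, as is BST2 (1.59-fold). The rule for entry to this list was not analysed here, so the count describes the list and carries no test.

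Whether the knockdowns left the 5 genes at different levels was tested directly, and 0 of 5 genes were called in any of the 4 contrasts between knockdowns (limma, Benjamini-Hochberg), although other settings called OAS2 and IFI6 between siMBNL1 and siBCL11A. Over all genes tested, 18.9% were called between siMBNL1 and siBCL11A, 2.04% between siB/siM and siBCL11A, 11.6% between siB/siM and siMBNL1, and 1.78% between siB/siM and the mean of the single pools. For IRF9 the mean was 6.48 ± 0.348 RPKM in siBCL11A, 6.51 ± 0.506 in siB/siM and 6.63 ± 0.479 in siMBNL1 (SD, n = 3 each), and these neighbours did not differ beyond their spread. The siMBNL1 minus siBCL11A difference was 0.028 on the log2 scale with a 95% interval from −0.13 to 0.18. For siB/siM the interval ran from −0.15 to 0.16 against siBCL11A and from −0.18 to 0.13 against siMBNL1. Each of these intervals leaves room for a small difference in either direction.

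Unadjusted two-sided p-values under 0.05 were found for OAS2 and IFI6 between siMBNL1 and siBCL11A, in opposite directions. OAS2 was at 3.55 ± 0.442 RPKM in siMBNL1 and 2.88 ± 0.305 in siBCL11A, a difference of 0.23 ± 0.078 (95% interval 0.059 to 0.40; limma, adjusted p = 0.275). IFI6 was at 2.80 ± 0.556 RPKM in siMBNL1 and 4.28 ± 0.998 in siBCL11A, a difference of −0.47 ± 0.15 (95% interval −0.79 to −0.14; limma, adjusted p = 0.209). This IFI6 difference was called with adjustment over the listed genes alone (adjusted p = 0.0304), and so was that of OAS2 (adjusted p = 0.0399). In both cases the 2 groups had libraries in a common range. OAS2 was also at 2.93 ± 0.0638 RPKM in siB/siM, lower than in siMBNL1 by a log2 difference of −0.21 ± 0.078 (95% interval −0.38 to −0.038; limma, adjusted p = 0.419). At an unadjusted p under 0.05, 2 genes were therefore found between siMBNL1 and siBCL11A, 1 between siB/siM and siMBNL1 and 0 in the other contrasts, where 44.5%, 38.1%, 26% and 28.2% of all genes were. Libraries lay apart for MX2 between siMBNL1 and siBCL11A and for OAS2 between siB/siM and siMBNL1, as they did for 44.5% and 38.7% of all genes.

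The combination was set beside the mean of the single pools, with each pool at the lower dose in the combination. The log2 difference was −0.0081 for IRF9 (95% interval −0.14 to 0.13), −0.093 for OAS2 (−0.24 to 0.054), −0.020 for MX2 (−0.17 to 0.13), 0.030 for IFI6 (−0.25 to 0.31) and −0.029 for BST2 (−0.15 to 0.094). None of these passed limma (adjusted p = 1 for each). A further fall with both pools of the size seen against siNS lies outside these intervals for each of the 5 genes, while smaller differences do not. MX2 differed between siMBNL1 and siBCL11A by 0.12 ± 0.077 and BST2 by −0.063 ± 0.065, neither called (limma, adjusted p = 1).

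**Figure D4:**
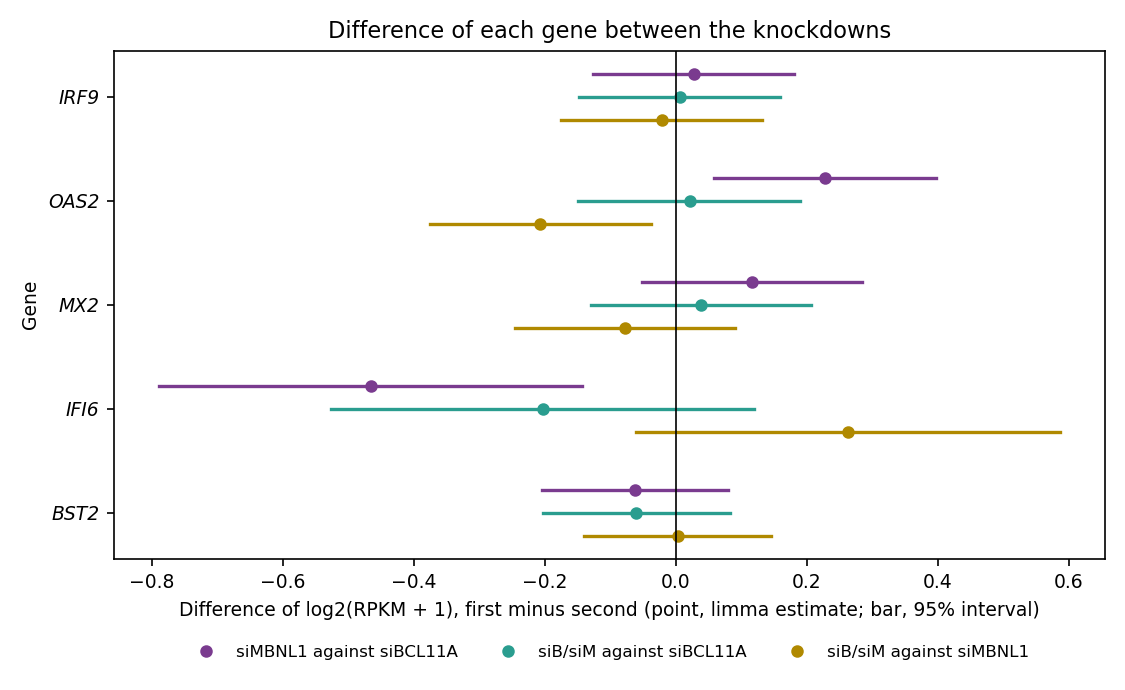
Difference of log2(RPKM + 1) between knockdowns (x axis) for each of the 5 genes (y axis); points are limma estimates and bars 95% intervals for siMBNL1 minus siBCL11A (purple), siB/siM minus siBCL11A (teal) and siB/siM minus siMBNL1 (ochre). IRF9 and BST2 lie within 0.07 of 0 in each contrast, while IFI6 spans from −0.47 to 0.26.

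The 5 genes did not share 1 profile over the 11 libraries. After centring each gene on siNS, the root mean square (RMS) difference of log2(RPKM + 1) between 2 genes was smallest for OAS2 and MX2 at 0.0932. It was 0.143 for MX2 and BST2 and 0.18 for OAS2 and BST2. IRF9 was 0.286 from IFI6 and 0.379 from BST2, and the largest distance was 0.494, between MX2 and IFI6. Changes of genes near or under 1 RPKM, MX2 among them, are compressed on this scale.

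The 3 profiles nearest to each gene were taken from 3149 genes with values in all libraries. For IRF9 they were NOX5, an NADPH oxidase (RMS difference 0.106), IDS, a lysosomal sulfatase (0.117), and FHOD3, a formin (0.117). NOX5 was at 0.143 to 1.74 RPKM over the libraries, so the added 1 compresses its changes more than those of IRF9. NCOA3, a nuclear receptor coactivator (0.0643), TGFBR1, a TGF-beta receptor kinase (0.0794), and TMEM25 (0.0844) were nearest to OAS2. For MX2 they were LOC550643 (0.0829), NCOA3 (0.0873) and APOL3, an apolipoprotein L family gene (0.0874). The nearest to IFI6 were CXCL11, an interferon-inducible chemokine (0.207), C11orf86 (0.217) and ICAM1, an adhesion molecule (0.219). All 3 had their lowest mean after siMBNL1, as IFI6 did. CXCL11 (0.18 to 2.74 RPKM) and C11orf86 (0.229 to 2.69 RPKM) were low, and their changes are compressed as well. BST2 had MAGED2 (0.0583), LRIG1 (0.0746) and GBP4, a guanylate-binding protein (0.0812). GBP4 was at −0.61, −0.74 and −0.73 on the log2 scale in siBCL11A, siMBNL1 and siB/siM, beside −0.67, −0.73 and −0.73 for BST2.

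Other genes of the pathway were counted by role, and each count below stands beside lower calls for 46.9%, 49.1% and 35.5% and higher calls for 42.3%, 45.2% and 51.3% of all genes tested after siBCL11A, siMBNL1 and siB/siM. The table was selected for genes that differ from siNS and the lists were chosen with results known, so the counts describe the lists and test nothing. Of 12 interferon ligand genes 0 had values, and their levels were not analysed here. Among receptors and kinases 4 of 10 had values, and 3 of 4, 2 of 3 and 3 of 4 were called lower after siBCL11A, siMBNL1 and siB/siM, with 1 higher in each. Values in brackets here and in the next paragraphs are log2 changes against siNS in that order. IL10RB, a chain of the type III interferon receptor (−0.65, −0.66 and −0.62), and IFNGR2, a chain of the type II receptor (−0.53, −0.53 and −0.47), fell with limma adjusted p at most 5.98e-05. IFNAR2, a chain of the type I receptor, fell after siBCL11A (−0.36; limma, adjusted p = 0.00746) and after both pools (−0.28; adjusted p = 0.0251), calls that ended without siNS library 1. JAK1, the kinase, rose by 0.19, 0.25 and 0.26 (limma, adjusted p = 0.0288, 0.00703 and 0.00457), and each of these calls ended without siNS library 1 (adjusted p up to 0.295, 0.0994 and 0.0673 over the alternatives).

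Of 13 genes in a list of STAT and IRF factors other than IRF9, which also holds IRF2-binding proteins, 7 had values. Of these, 0, 1 and 1 were called higher, and 6 of 7, 5 of 6 and 5 of 6 lower. Without siB/siM library 1 the last count was 3 of 6 lower. STAT2, the partner of IRF9, was at 15.8 RPKM in siNS and at 11.7, 9.41 and 10.6 in the knockdowns. It fell in each (−0.41, −0.69 and −0.53; limma, adjusted p = 0.0024, 6.5e-05 and 0.00036). IRF7, which amplifies interferon production, fell from 6.35 RPKM to 2.54, 3.33 and 4.30 (−1.06, −0.77 and −0.48; adjusted p = 0.000124, 0.00171 and 0.0259). Its call after both pools ended without siNS library 2 or without siB/siM library 1 or 3 (adjusted p up to 0.247 over the alternatives). IRF1 (−0.46, −0.50 and −0.50) and IRF3 (−0.52, −0.52 and −0.40), a pair of factors that turn on interferon genes, fell as well. The IRF2-binding proteins IRF2BPL (−0.62, −0.41 and −0.33) and IRF2BP2 (−0.28, siBCL11A) also fell, but the call of IRF2BPL after siMBNL1 and after both ended without siNS library 1, and that of IRF2BP2 without either siNS library. STAT3, a mediator of interleukin-6 signals, rose by 0.53 after siMBNL1 and by 0.29 after both, and was at 0.14 after siBCL11A (adjusted p = 0.186).

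In a list of nucleic acid sensors, adaptors and related genes, 10, 11 and 11 had values in siBCL11A, siMBNL1 and siB/siM. Of these, 8, 9 and 9 were called lower and 1 higher in each. TMEM173 (STING), the adaptor of DNA sensing (−0.84, −0.68 and −0.86), and MAVS, the adaptor of RNA sensing (−0.79, −0.39 and −0.51), fell in each knockdown. So did IKBKE, a kinase that activates IRF3 and IRF7 (−0.89, −0.49 and −0.74), and TLR3, the endosomal RNA receptor (−0.49, −0.63 and −0.72), whose call after siBCL11A ended with quantile normalization (adjusted p = 0.105). MYD88, a Toll-like receptor adaptor (−0.52, −0.48 and −0.64), and ADAR, the RNA-editing enzyme (−0.27, −0.27 and −0.33), fell too. AIM2, a cytosolic DNA sensor, fell after siBCL11A (−1.10) and after both (−0.87), and was at −0.49 after siMBNL1 (limma, adjusted p = 0.0567). MB21D1 (cGAS), the enzyme that makes the ligand of STING, rose by 0.47, 0.42 and 0.65 (adjusted p = 0.000752, 0.00233 and 6.42e-05). IFIH1 (−0.27, −0.35 and −0.30), DDX58 (−0.29, siB/siM), DHX58 (−0.30, siMBNL1) and TICAM1 (−0.34, siMBNL1) also fell, but each of these calls ended without siNS library 2, as those of MYD88 after the single pools did without siNS library 1. EIF2AK2 (0.18, siBCL11A) and ZC3HAV1 (0.14, siB/siM) were not called.

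Negative regulators went in both directions, with 3 of 4, 4 of 5 and 3 of 5 called lower and 1 higher in each comparison. PTPN6, a phosphatase that acts on JAK kinases (−0.95, −0.87 and −0.88), and PIAS3, an inhibitor of STAT proteins (−0.48, −0.50 and −0.61), fell with limma adjusted p at most 0.000172. SOCS1, an inhibitor of the same kinases, had a mean of 1.58 RPKM in siNS and at most 0.874 RPKM in a knockdown. Like MX2 it met the minimum of 1 RPKM through siNS alone, so its log2 changes (−0.63, −0.57 and −0.47) are a description, although it is part of the count of lower genes. PIAS4 fell after siMBNL1 (−0.41). SOCS3, another suppressor of cytokine signalling, rose by 0.33 after siBCL11A and 0.43 after both, and PTPN1 rose by 0.31 after siMBNL1, a call that ended without either siNS library (adjusted p up to 0.0642), and was at 0.16 after both (adjusted p = 0.14).

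Beyond the 5 genes, 53 of 76 other interferon-stimulated genes had values in at least 1 comparison. After siBCL11A 34 of 41 were called lower and 3 higher (median −0.53), after siMBNL1 40 of 43 lower and 2 higher (median −0.59), and after both 35 of 44 lower and 2 higher (median −0.46). The medians over all genes tested were −0.22, −0.25 and 0.24, and the all-gene shares of lower calls 46.9%, 49.1% and 35.5%. Over the 3149 genes with values in all libraries the medians were −0.21, −0.23 and −0.18. Of the 53 genes, 6 met the minimum of 1 RPKM through siNS alone (APOBEC3G, CXCL10, CXCL11, OAS1, RTP4 and TRIM22), so the counts and medians carry no support for a direction. Leaving out 1 siNS library gave 30 or 29 lower calls after siBCL11A, 34 with either left out after siMBNL1, and 29 or 28 after both; the higher calls then numbered 0 to 2. GBP2, an interferon-induced GTPase, fell from 19.6 and 20.8 RPKM in siNS to 4.30 to 7.07 after siBCL11A, 7.69 to 9.40 after siMBNL1 and 6.57 to 6.88 after both, with no overlap (−1.67, −1.16 and −1.46 on the log2 scale). IFITM1, which blocks virus entry, was at 27.7 and 29.8 RPKM in siNS, 9.78 to 11.3 after siBCL11A, 14.3 to 17.8 after siMBNL1 and 9.42 to 10.3 after both (−1.39, −0.84 and −1.46). Its relatives IFITM2 (−1.13, −0.85 and −1.08) and IFITM3 (−0.91, −0.81 and −0.82) fell too, but the 3 genes are similar enough that reads may be shared among them.

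Falls were also found for TNFSF10, the death ligand TRAIL (−1.11, −1.06 and −1.20), ISG20, an exonuclease (−1.14, −0.96 and −0.82), and GBP1 (−0.90, −1.05 and −0.92). IFI30, a lysosomal thiol reductase (−0.68, −0.93 and −0.60), and PSMB10, an immunoproteasome subunit (−0.68, −0.92 and −0.48), fell in each knockdown. For the genes that passed through siNS alone the values are a description: CXCL11 had a mean of 2.63 RPKM in siNS and at most 0.834 in a knockdown (−1.02, −1.34 and −0.99), and APOBEC3G, a cytidine deaminase, 1.69 and at most 0.514 RPKM (−0.87, −0.83 and −0.91). The guanylate-binding and APOBEC3 genes have close relatives, so their reads may be shared as well. ISG15, the ubiquitin-like modifier, was at 174.0 and 179.9 RPKM in siNS, 80.8 to 105.9 after siBCL11A, 88.6 to 110.8 after siMBNL1 and 126.3 to 140.1 after both. It fell in each (−0.92, −0.80 and −0.40), and the call after both ended without either siNS library or without siB/siM library 1 (adjusted p up to 0.114). Genes of this list that rose were PNPT1, a mitochondrial RNA exonuclease (0.43, 0.31 and 0.45), DDX60L (0.33, siBCL11A), NT5C3 (0.27, siBCL11A), APOBEC3B (0.38, siMBNL1) and HERC5 (0.22, siB/siM), named after their values were seen. Each had at least 1 of its calls end when a siNS library was left out. Genes for MHC class I antigen presentation, which interferon also raises, were lower in 8 of 9, 9 of 9 and 5 of 7 and higher in 0 (medians −0.42, −0.43 and −0.34), beside lower calls for 46.9%, 49.1% and 35.5% of all genes. Without siNS library 2 the lower counts were 6 of 9, 5 of 9 and 3 of 7.

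**Figure D5:**
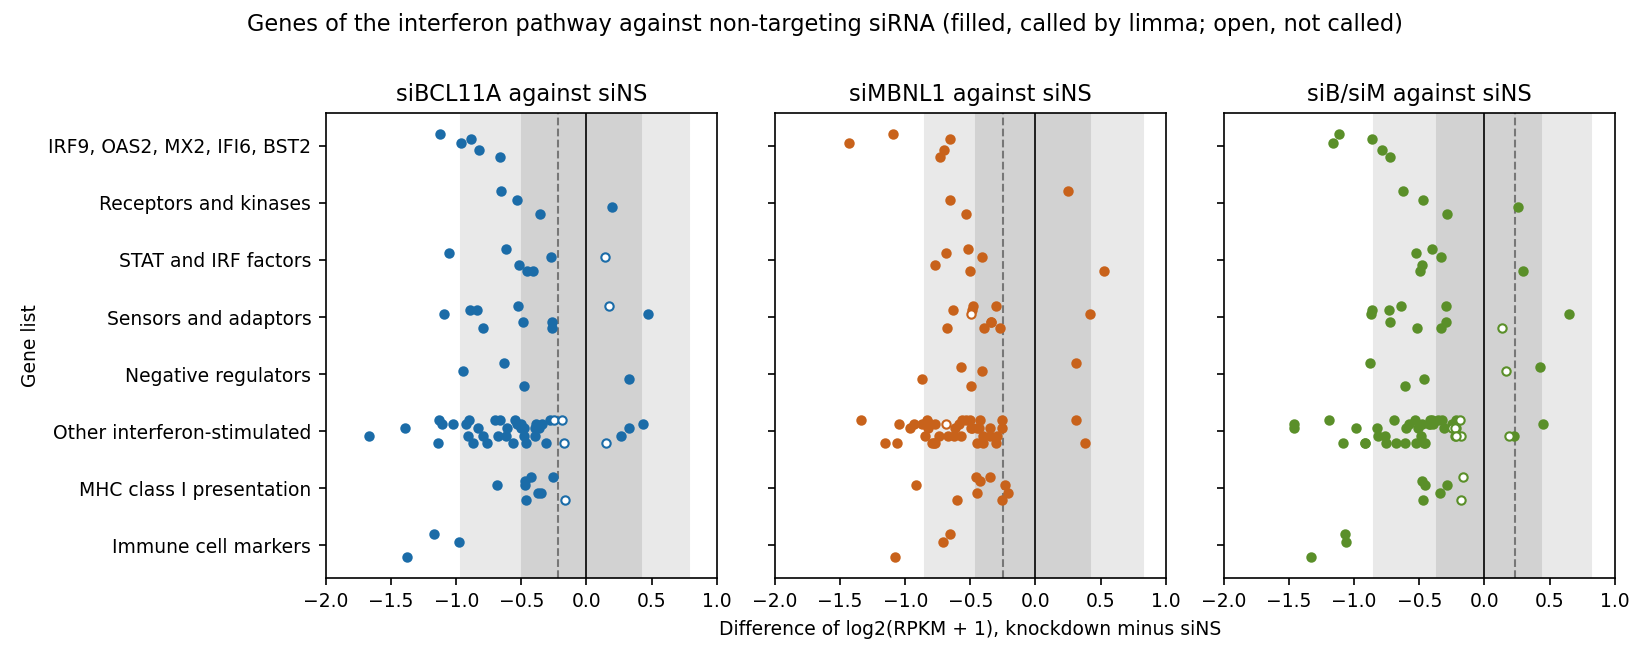
Difference of log2(RPKM + 1), knockdown minus siNS (x axis), of each gene with a value in 8 lists (y axis), for siBCL11A, siMBNL1 and siB/siM; filled points were called by limma and open points were not, the light and dark bands hold the middle 90% and 50% of all genes tested, the dashed line is their median and the solid line is 0. The 5 genes, most measured sensors and most other measured interferon-stimulated genes lie to the left of 0, with single genes such as MB21D1 to the right.

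Between the knockdowns, a small number of pathway genes were called. With siMBNL1 against siBCL11A, IFITM1 was higher by 0.56 ± 0.081 (limma, adjusted p = 0.00164), GBP2 by 0.51 ± 0.12 (adjusted p = 0.0427), IKBKE by 0.41 ± 0.065 (adjusted p = 0.00377), MAVS by 0.40 ± 0.064 (adjusted p = 0.00369) and STAT3 by 0.38 ± 0.055 (adjusted p = 0.00155). With siB/siM against siMBNL1, IFITM1 was lower (−0.62 ± 0.081, adjusted p = 0.0012), while IFI30 (0.33 ± 0.068, adjusted p = 0.0263) and PSMB10 (0.44 ± 0.081, adjusted p = 0.0152) were higher. Of the other interferon-stimulated genes, 2 of 32 were called higher and 0 lower between siMBNL1 and siBCL11A, beside 11.9% higher and 7.02% lower over all genes. In that contrast 2 of 9 genes of the sensor list and 1 of 6 of the STAT and IRF list were called higher, and 0 lower. Between siB/siM and siMBNL1, 1 of 37 other interferon-stimulated genes was called higher and 1 lower. Of the MHC class I genes, 1 of 7 was higher and 0 lower there, beside 11.6% of all genes called in either direction. The genes above were named because they were called.

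Markers of immune cells were looked at in the same comparisons. Values exist only for genes that passed the authors' test against siNS, so a marker without a change could not appear. Of 16 such markers 3 had values, CD14, CD68 and CSF1R, none of them at 0 in any library, and the remaining 13 were not analysed here. Their summed level was 60.6 to 62.4 RPKM in siNS, 27.8 to 31.5 in siBCL11A, 33.3 to 38.8 in siMBNL1 and 26.7 to 28.3 in siB/siM. CD68, a lysosomal protein also made by other cells, made up most of the sum. CD68 (−0.98, −0.71 and −1.07) and CSF1R (−1.17, −0.66 and −1.07) fell in each knockdown (limma, adjusted p at most 2e-04). Lower calls were made for 46.9%, 49.1% and 35.5% of all genes tested. CSF1R was higher in siMBNL1 than in siBCL11A (0.51; limma, adjusted p = 0.00309). In siB/siM, CSF1R (−0.41; adjusted p = 0.0194) and CD68 (−0.36; adjusted p = 0.0187) were lower than in siMBNL1. CD14 met the minimum of 1 RPKM through siNS alone, with a mean of 1.96 RPKM there and at most 0.404 in a knockdown (−1.38, −1.07 and −1.33), which is given as a description. The part of these markers in the result was not tested. The authors' deposited lists of cassette exons hold 107, 110 and 146 exons for siBCL11A, siMBNL1 and siB/siM, and 0 of them lie in the 5 genes or in the interferon lists.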

How the data were processed

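Stranded, rRNA-depleted total RNA libraries were sequenced, per the labels. Expression values were deposited by the authors as RPKM per library, on hg19 per the submitters' processing notes. The table also holds the authors' log2 fold change and their p-value for each comparison, the deposited gene lists hold a ratio (fold change) of mean RPKM, and the deposited exon lists an inclusion fraction. Neither the aligner nor the counter is given in the sources used here. The table lists genes that passed the authors' test in each block (5360, 4690 and 6700 genes).

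Here log2(RPKM + 1) was fitted with limma 3.58.1 in R 4.3.3, as a cell-means model of 4 groups over 11 libraries. Empirical Bayes moderation was used without trend or robust options (prior 4.83 degrees of freedom). Genes under 1 RPKM on average in every group were to be dropped, and 0 of 8085 genes were. Benjamini-Hochberg adjustment was over 23227 genes, the number behind the authors' adjusted p-values, with calls at adjusted p under 0.05. Genes without values counted as not passing. In the contrasts between knockdowns, where 3149 to 4511 genes had values, this made a call harder than adjustment over the genes tested. Intervals are 95% from the moderated fit. The fit was tested on simulated data. The RPKM values step by whole reads of short RNAs, which gave the effective library sizes (within 0.05 reads) and, from them, approximate reads per gene. Reads were not stated to carry molecular identifiers, so these counts may include copies.

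The genes and lists were chosen with earlier results of these data known. Genes named were the 5, all measured upstream pathway genes and negative regulators, the 12 largest called changes of at least 0.8 (log2) among other interferon-stimulated and MHC genes, the 3 nearest profiles to each gene, and measured immune markers; others are marked where they are named. Deviations from group means correlated for equal replicate numbers of siBCL11A and siB/siM (r = 0.33, 0.19 and 0.18), so these numbers were treated as a possible pairing that the labels do not state. Unequal numbers reached r = 0.37. Alternatives were other pseudocounts, scalings, filters, model options and adjustment, a replicate block, and leaving out each library.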

Additional observations from a re-analysis of the deposited data

How the results depend on the processing

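All 15 changes of the 5 genes against siNS kept their direction and call under every alternative in which the gene could be fitted. MX2 drops out at a mean of at least 5 RPKM, which leaves 4 of 4 called. MX2 met the minimum of 1 RPKM through siNS alone, so the stability of its calls is a description and no support. Some alternatives could not end a call: the fit without a filter equals the main fit, and adjustment over the listed genes alone can only lower an adjusted p. All of them used genes already selected for differing from siNS. Leaving out 1 library gave ranges of −1.20 to −1.05 for IRF9 after siBCL11A and −1.10 to −0.82 for IFI6 after siBCL11A. Between siMBNL1 and siBCL11A, 2 of the 5 genes were called with adjustment over the listed genes alone (OAS2, adjusted p = 0.0399; IFI6, adjusted p = 0.0304) and 1 with the replicate block (IFI6, adjusted p = 0.034). Equal numbers of those groups had r = −0.22, −0.11 and 0.24 and share only a number. The block changed no other call of the 5 genes; with it, 64 genes in all were called between siB/siM and siBCL11A.

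Counts over all genes moved more. Quantile normalization, which keeps 3149 genes, gave 2840, 2797 and 2809 calls against siNS, in place of 4780, 4423 and 5819. For siMBNL1 against siBCL11A, adjustment over the listed genes gave 1150 in place of 638. For siB/siM against siBCL11A the 92 calls became 47 and 57 with pseudocounts of 0.1 and 0.5, 45 with median scaling, 18 with quantile normalization, 165 with trend and robust options, 456 with adjustment over the listed genes, and 8 to 126 without 1 library. For siB/siM against siMBNL1, 454 became 993 with that adjustment and 262 to 453 without 1 library. Against the mean of the single pools, 56 became 35 and 36 with the smaller pseudocounts, 354 with that adjustment and 8 to 53 without 1 library. Median scaling moved the share of higher genes among those called from 87% to 64.4% for siB/siM against siBCL11A and from 48.2% to 23.6% against the mean of the single pools. The cause of these moves was not tested, apart from the smaller gene set or sample number by construction. Depth limits IFI6 and MX2 most, with as few as 63 and 64 reads in a library.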
